A study of Mus musculus with 14 samples.

Results

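The genes described are the tetraspanin Cd9, whose protein was a positive marker of every sort, with 7 other tetraspanins (Cd81, Cd63, Cd82, Cd151, Tspan2, Tspan4 and Tspan6) and 2 immunoglobulin-superfamily partners of CD9 and CD81, Ptgfrn (also called EWI-F or CD9P-1) and Igsf8 (EWI-2). They were chosen by name, with earlier results of these data known. They were matched to the symbols of the deposited comparison table, and all 10 were found among 21733 genes with a symbol. Of these 10 genes, 4 (Cd9, Tspan2, Tspan4 and Tspan6) were lower in cells carrying both CD73 and Thy1 than in each of the other 3 groups. Taken 1 comparison at a time, 12.4% to 13.8% of all genes were called lower in the double-positive cells. The share of all genes lower in all 3 comparisons was not counted. Cd151 was highest in CD73- Thy1+ cells by its brighter probe set, while no pair of groups passed for its dimmer set. Cd63 had its highest mean in the double-positive cells, without a call against CD73+ Thy1- cells. No difference among the groups was called for Cd81. Ptgfrn was higher in both CD73+ groups than in the CD73- group with the same Thy1 status. Igsf8 was lower in CD73- Thy1+ cells than in either Thy1- group.

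Tetraspanins are small proteins that cross the membrane 4 times and gather integrins, immunoglobulin-superfamily proteins, proteases and each other into membrane microdomains. CD9 and CD81 bind the EWI proteins directly, CD151 binds laminin-binding integrins, CD63 is abundant on late endosomes and on secreted vesicles, and CD82 was first known as a metastasis suppressor. In skeletal tissue, tetraspanins are known mainly from work on osteoclast fusion and on cell adhesion, and CD9 is used as a surface marker of mesenchymal cells.

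Limb cells of C57BL/6 embryos (embryonic day 16.5) were freed with collagenase and dispase, and were sorted by fluorescence as osteochondroprogenitor (OCP) sub-populations. All 4 groups were CD9+, so CD9- cells were not analysed here. OCP1 was CD73+ Thy1- (3 arrays), OCP2 CD73- Thy1- (3 arrays), OCP3 CD73- Thy1+ (4 arrays) and OCP4 CD73+ Thy1+ (4 arrays). No transgene or treatment is named, and the labels do not say whether embryos were pooled or whether replicates came from separate litters, so a p-value here speaks only of how far the samples of a group lie apart, and that distance may be technical. Levels are log2 of the deposited intensity on Affymetrix Mouse Gene 1.0 ST arrays, and they are compared between groups for 1 gene, never between genes. The question of the series is how these sub-populations differ in gene expression.

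The labels were checked first. Nt5e, which encodes CD73, had 12.17 to 12.47 in OCP1 and 12.98 to 13.37 in OCP4, against 8.91 to 9.88 over OCP2 and OCP3. Thy1 had 12.44 to 13.27 in the Thy1+ groups and 9.19 to 9.87 in the Thy1- groups. The bone collagen gene Col1a1 had group means from 14.39 to 14.66 and the cartilage collagen gene Col2a1 from 11.25 to 13.56, while Ptprc, the pan-leukocyte CD45 gene, lay between 7.06 and 7.21. Marker lists of other cells were examined with a moderated F-test over the 4 groups, which called 39.5% of all genes. It called 12 of 14 endothelial, 11 of 12 Schwann and nerve, 10 of 10 pericyte and smooth muscle and 8 of 11 skeletal muscle genes. It called 3 of 13 haematopoietic genes (23.1%) and 1 of 9 keratinocyte genes (11.1%), both below the share of all genes. Among skeletal lineages 12 of 12 cartilage, 9 of 10 osteoblast and 10 of 10 fibrous genes were called. In single comparisons, 5 of 13 haematopoietic genes were higher and 0 lower in OCP4 than in OCP3, and likewise than in OCP1. That share was 38.5%, where 27.8% and 26.3% of all genes were called. The interaction of CD73 and Thy1 was called for 46.2% of them, against 18.0% of all genes, and OCP4 minus OCP2 for 0. In such sorted pools, a smaller number of cells of a type and less RNA per cell cannot be told apart.

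Upstream sequences were taken from RefSeq (GRCm38.p6), which held an entry for all 10 genes. They are shown for Cd9 as the gate marker, for Cd81 as the close relative of Cd9 that showed no called difference, and for Cd151 and Tspan4, which are neighbours on chromosome 7 and both have their highest mean in OCP3. Where the table lists several starts for a gene (Cd82, Cd151, Tspan2 and Tspan4), the one farthest upstream was taken. Each run is the 250 bases before the annotated start in the direction of transcription, and capitals mark GGGCGG, the core of the GC box bound by Sp-family factors, or its reverse complement.
Cd9 (chr6:125494761-125495010, minus strand): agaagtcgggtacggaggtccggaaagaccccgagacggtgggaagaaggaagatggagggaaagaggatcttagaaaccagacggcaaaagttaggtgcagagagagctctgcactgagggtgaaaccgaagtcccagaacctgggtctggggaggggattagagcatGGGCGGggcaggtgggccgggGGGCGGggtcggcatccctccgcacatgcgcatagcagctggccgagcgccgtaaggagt
Cd81 (chr7:143052500-143052749, plus strand): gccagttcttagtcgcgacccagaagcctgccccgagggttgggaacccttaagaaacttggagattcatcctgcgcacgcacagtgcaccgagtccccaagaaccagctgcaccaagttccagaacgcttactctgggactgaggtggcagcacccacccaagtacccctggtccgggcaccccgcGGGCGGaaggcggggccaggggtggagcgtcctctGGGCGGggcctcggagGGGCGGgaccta
Cd151 (chr7:141467112-141467361, plus strand): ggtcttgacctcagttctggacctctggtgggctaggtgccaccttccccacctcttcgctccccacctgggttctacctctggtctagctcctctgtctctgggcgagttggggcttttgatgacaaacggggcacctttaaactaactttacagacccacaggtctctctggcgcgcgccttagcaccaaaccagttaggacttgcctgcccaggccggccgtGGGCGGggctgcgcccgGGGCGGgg
Tspan4 (chr7:141474986-141475235, plus strand): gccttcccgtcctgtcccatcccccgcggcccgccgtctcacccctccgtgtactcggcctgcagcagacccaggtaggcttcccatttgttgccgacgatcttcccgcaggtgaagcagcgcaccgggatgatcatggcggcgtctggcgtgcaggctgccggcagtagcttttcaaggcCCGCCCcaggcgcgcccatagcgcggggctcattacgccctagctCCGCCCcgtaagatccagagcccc
The window of Cd9 holds 2 GC boxes, that of Cd81 3, that of Cd151 2 and that of Tspan4 2. Among 32851 mouse windows of this length 32.7% hold at least 1. None of these 4 windows, nor those of the other 6 genes, holds TATAAA on either strand, which 12.4% of all windows do. GC boxes were also found for Cd82 (1), Ptgfrn (1) and Igsf8 (4), and none for Cd63, Tspan2 and Tspan6. The 2 motifs cannot overlap each other. The windows of Cd9 and Cd81 both have 16 CpG pairs, against a median of 6. 
A moderated F-test in limma asked whether a gene differed among the 4 groups in any way. It called 9 of the 10 genes, Cd81 being the exception (adjusted p = 0.276), where 39.5% of all 21733 genes were called. The 10 genes were chosen with earlier results of these data known. They were also brighter than most, with 56.2% (Tspan2) to 99.6% (Cd81) of all genes dimmer. The 10 genes and all genes are therefore not like sets, in this count or in the spread that follows. The distance between the highest and the lowest group mean had a median of 0.55 log2 units over the 10 genes and 0.21 over all genes. It was 1.09 for Tspan2, 0.94 for Cd151, 0.92 for Cd9, 0.91 for Tspan4 and 0.69 for Tspan6, and between 0.23 and 0.41 for Cd63, Cd82, Ptgfrn and Igsf8. For Cd81 it was 0.09, a smaller spread than that of all but 10.1% of the genes.

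**Figure D1:**
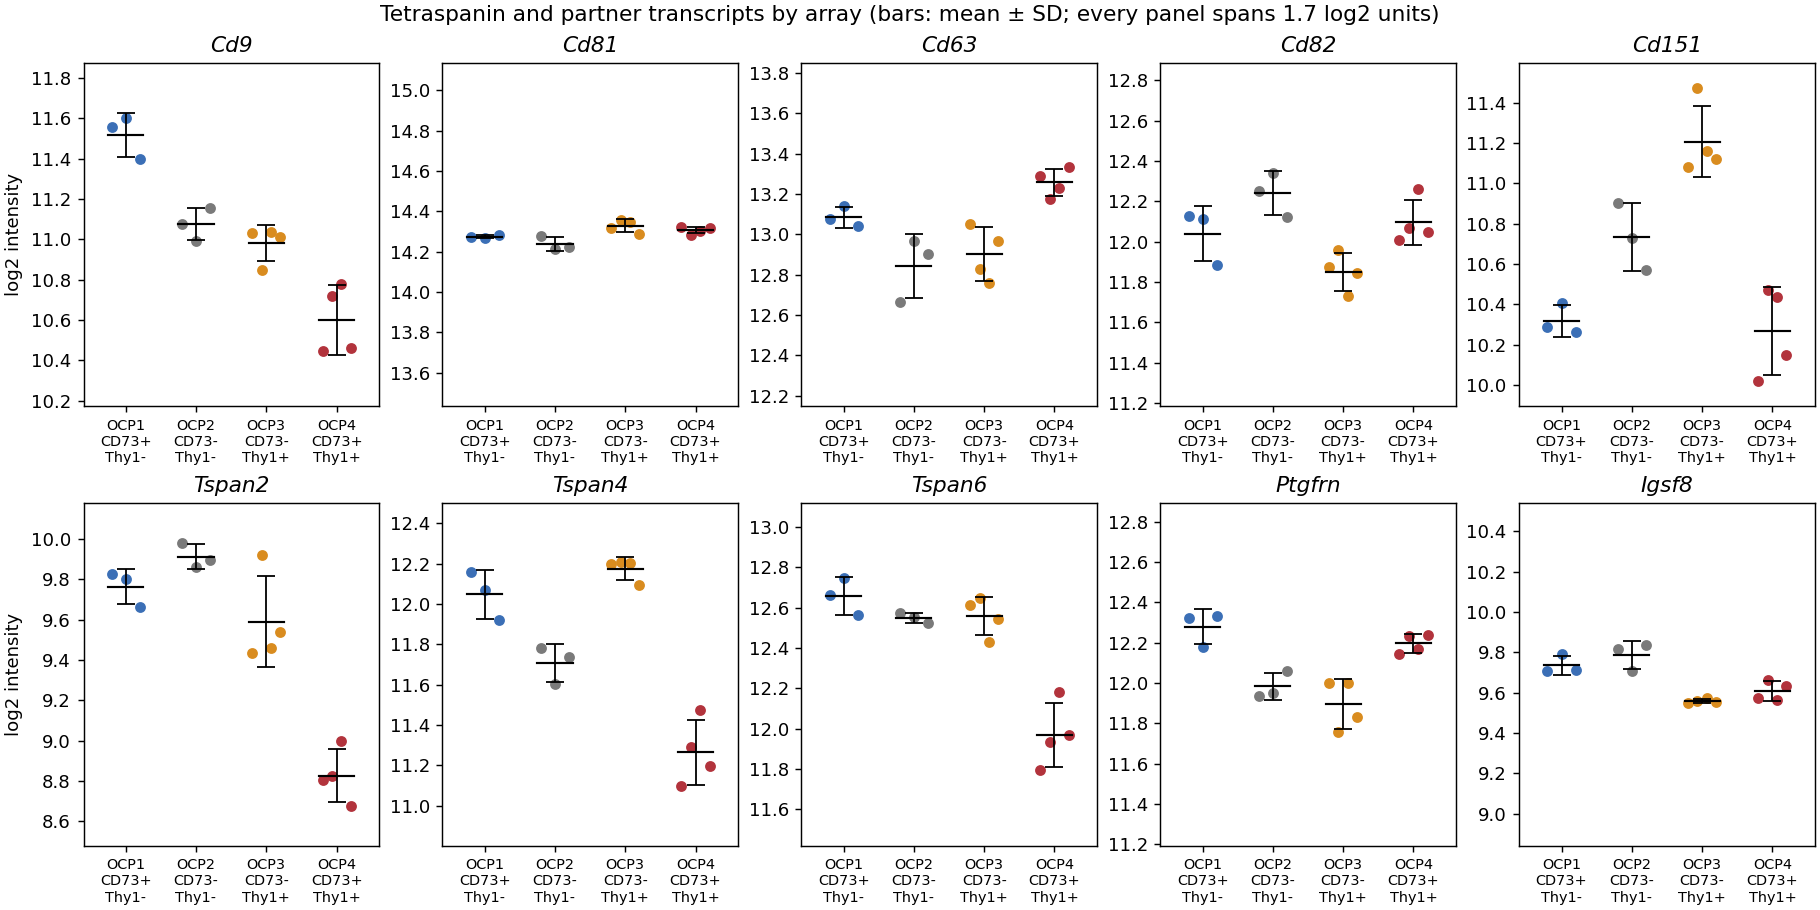
Log2 intensity of each gene (y axis, every panel spanning the same range) in the 4 sorted groups (x axis), with a point for each array and bars for mean ± SD (n = 3 in OCP1 and OCP2, n = 4 in OCP3 and OCP4). The OCP4 arrays lie below all others for Cd9, Tspan2, Tspan4 and Tspan6, the OCP3 arrays lie above all others for Cd151, and the points of Cd81 stay between 14.21 and 14.36.

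Cd9, whose protein takes part in cell fusion, adhesion and vesicle formation, was graded across the groups although all cells had been sorted as CD9+. Its log2 intensity was 11.56, 11.60 and 11.40 in the OCP1 arrays and 11.08, 10.99 and 11.16 in the OCP2 arrays. It was 11.03, 10.85, 11.04 and 11.01 in OCP3, and 10.45, 10.72, 10.78 and 10.46 in OCP4. The OCP1 arrays lay above all others and the OCP4 arrays below all others, while OCP2 and OCP3 overlapped. The means were 11.52 ± 0.11 (SD, n = 3) in OCP1, 11.08 ± 0.08 (SD, n = 3) in OCP2, 10.98 ± 0.09 (SD, n = 4) in OCP3 and 10.60 ± 0.17 (SD, n = 4) in OCP4.

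CD73 status went with Cd9 in opposite directions in the 2 Thy1 backgrounds. Without Thy1, Cd9 was 1.36-fold higher in CD73+ cells (OCP1 minus OCP2, log2 difference 0.44 ± 0.09, SE; limma adjusted p = 0.00652). With Thy1, it was 1.30-fold lower in CD73+ cells (OCP4 minus OCP3, -0.38 ± 0.08, SE; limma adjusted p = 0.00244). The interaction of CD73 and Thy1, the difference between these differences, was -0.82 ± 0.12 (SE; limma adjusted p = 0.000291). Among CD73+ cells the Thy1+ group was 1.89-fold lower (OCP4 minus OCP1, -0.92 with a 95% interval from -1.10 to -0.73; limma adjusted p = 2.01e-06). Among CD73- cells the Thy1 difference did not pass (OCP3 minus OCP2, -0.09, interval from -0.28 to 0.10, limma adjusted p = 0.549). The order was therefore OCP1, then OCP2 and OCP3, which did not differ beyond their spread, then OCP4. Over CD73+ cells, cartilage genes went the same way as Cd9: 12 of 12 were lower in OCP4 than in OCP1, and the summed intensity of the list was 100935 to 116572 in OCP1, 48661 to 60177 in OCP2, 15843 to 22563 in OCP3 and 18415 to 30706 in OCP4. In OCP1 minus OCP2, where Cd9 was higher, 10 of 12 cartilage genes were higher and 0 lower. In OCP3 minus OCP2, where Cd9 was not called, 12 of 12 cartilage genes were lower. In OCP4 minus OCP3, where Cd9 was lower, 7 of 12 cartilage genes were higher and 2 lower. Of 10 osteoblast genes, 8 were higher and 0 lower in OCP1 minus OCP2. In OCP4 minus OCP3, 1 osteoblast gene was higher and 7 lower, and in OCP4 minus OCP1, 0 were higher and 7 lower. In OCP3 minus OCP2, 6 osteoblast genes were higher and 0 lower. The part of cartilage cells or osteoblasts in the Cd9 differences was not tested.

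Tspan6, a tetraspanin with a role in endosomal sorting and vesicle release, had nearly level values in 3 groups and a lower one in OCP4. Its arrays read 12.66, 12.75 and 12.56 in OCP1, 12.57, 12.55 and 12.52 in OCP2, and 12.61, 12.65, 12.43 and 12.54 in OCP3, against 11.79, 11.94, 12.18 and 11.97 in OCP4. The OCP4 arrays did not overlap with any other group, and the other 3 groups overlapped with each other. OCP4 was 1.61-fold lower than OCP1 (limma adjusted p = 1.52e-05), and its log2 difference was -0.58 from OCP2 (7.90e-05) and -0.59 from OCP3 (2.79e-05). None of the 3 pairs among OCP1, OCP2 and OCP3 passed, with differences between 0.01 and 0.11 and limma adjusted p of 0.423 to 0.962.

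Tspan2, a tetraspanin of oligodendrocytes and smooth muscle, showed the largest fold change of the 10 genes over the 6 pairs of groups. It stood at 9.83, 9.80 and 9.66 in OCP1, at 9.98, 9.86 and 9.90 in OCP2 and at 9.44, 9.92, 9.46 and 9.54 in OCP3. In OCP4 it stood at 8.80, 8.82, 9.00 and 8.68, below every other array. OCP4 was 2.12-fold lower than OCP2, 1.92-fold lower than OCP1 and 1.70-fold lower than OCP3, with limma adjusted p of 2.44e-06, 9.28e-06 and 2.73e-05. The OCP3 mean (9.59 ± 0.23, SD, n = 4) was pulled up by replicate 2: OCP3 minus OCP2 was -0.32 with limma adjusted p = 0.0504, and without that array it was -0.43 with limma adjusted p = 0.00157, over a range of 0.00157 to 0.170 in 23 alternative settings.

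Tspan4, known for its part in the formation of migrasomes, vesicles left behind by migrating cells, was lowest in OCP4 and intermediate in OCP2. It read 12.16, 12.07 and 11.92 in OCP1 and 12.20, 12.21, 12.20 and 12.09 in OCP3. It read 11.78, 11.60 and 11.74 in OCP2 and 11.10, 11.29, 11.48 and 11.20 in OCP4. OCP1 and OCP3 overlapped and did not differ beyond their spread (OCP1 minus OCP3, -0.13, 95% interval from -0.31 to 0.05), and OCP4 did not overlap with any other group. OCP4 was 1.88-fold lower than OCP3 (limma adjusted p = 5.04e-07) and 1.72-fold lower than OCP1 (6.10e-06). OCP3 was 1.38-fold higher than OCP2 (0.00131). The interaction was the largest of the 10 genes, -1.25 ± 0.12 (SE; limma adjusted p = 5.36e-06), since CD73+ cells had more Tspan4 among Thy1- cells (1.27-fold, limma adjusted p = 0.0239) and less among Thy1+ cells. The former call was lost without OCP1 replicate 1 or 2 or OCP2 replicate 2 or 3 and with all probe sets kept apart, with limma adjusted p between 0.00558 and 0.120 over 23 alternative settings.

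Cd151, the tetraspanin that binds laminin-binding integrins, was the gene with the clearest peak in OCP3. Its brighter probe set read 11.08, 11.47, 11.16 and 11.12 in OCP3, against 10.90, 10.73 and 10.57 in OCP2. It read 10.29, 10.41 and 10.26 in OCP1 and 10.02, 10.47, 10.43 and 10.15 in OCP4. All OCP3 arrays lay above all others, OCP2 came next, and OCP1 and OCP4 overlapped. OCP3 was 1.92-fold higher than OCP4 (limma adjusted p = 1.38e-05), 1.85-fold higher than OCP1 (6.63e-05) and 1.39-fold higher than OCP2 (0.0138). The last of these was lost without OCP2 replicate 3 (limma adjusted p = 0.0721, and 0.00485 to 0.0721 over 23 alternative settings). OCP2 was 1.38-fold higher than OCP4 (0.0103), a call lost without OCP2 replicate 1 (0.0583, and 0.00496 to 0.392 over 23 alternative settings). OCP4 minus OCP1 was -0.05 (95% interval from -0.31 to 0.21).

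A second, dimmer probe set carries the symbol Cd151, and its highest mean was also in OCP3, but no pair of groups passed for it. Its log2 difference was 0.29 ± 0.09 (SE) for OCP3 minus OCP2 (limma adjusted p = 0.0684 over all probe sets) and -0.24 ± 0.09 (SE) for OCP1 minus OCP3. It was -0.05 ± 0.08 (SE) for OCP4 minus OCP3 where the brighter set showed -0.94, and 0.24 for OCP4 minus OCP2 where the brighter set showed -0.46. With the mean of both probe sets, OCP4 minus OCP3 was -0.49 and OCP4 minus OCP2 -0.11 (limma adjusted p = 0.392). Cd151 and Tspan4 lie next to each other on chromosome 7 with 1 protein-coding gene between them, the RNA polymerase subunit gene Polr2l. Polr2l, named for its position, did not pass in any of the 6 pairs, with OCP4 minus OCP3 at 0.10 (95% interval from 0.01 to 0.20). The summed intensity of the pericyte and smooth muscle list was also highest in OCP3. It was 74253 to 88135 in OCP3, 22585 to 27160 in OCP1, 31386 to 34496 in OCP2 and 24292 to 28690 in OCP4. Of that list, 10 of 10 genes were lower in OCP4 than in OCP3. Against OCP3, OCP1 had 9 lower and 1 higher, Cspg4, with means of 12.68 in OCP1 and 12.41 in OCP3. The pericyte gene Rgs5 stood at 13.28 ± 0.17 (SD, n = 4) in OCP3 and 9.53 ± 0.43 (SD, n = 4) in OCP4. In OCP1 minus OCP2, where Tspan4 was higher, 6 of 10 pericyte and smooth muscle genes were lower and 1 higher. Of 10 osteoblast genes, 8 were higher in OCP1 and 6 in OCP3 than in OCP2, with 0 lower in either. In OCP4, 7 osteoblast genes were lower and 0 higher than in OCP1, and 7 lower and 1 higher than in OCP3. Intensities have no true zero, so no marker can be said to be at 0. The part of pericytes or osteoblasts in the Cd151 and Tspan4 levels was not tested.

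Cd63, the tetraspanin of late endosomes and exosomes, ran the other way from Cd9 in the double-positive cells. It lay between 13.18 and 13.33 in OCP4, above all other arrays, between 13.04 and 13.14 in OCP1, between 12.67 and 12.97 in OCP2 and between 12.76 and 13.05 in OCP3. OCP4 was 1.28-fold higher than OCP3 (limma adjusted p = 0.00218) and 1.33-fold higher than OCP2 (0.00135), while OCP4 minus OCP1 was 0.17 (limma adjusted p = 0.142). OCP1 minus OCP2 was 0.24 (limma adjusted p = 0.0936) and the interaction 0.11 (95% interval from -0.13 to 0.36). Of 13 haematopoietic genes, 5 were higher and 0 lower in OCP4 than in OCP3, where 14.3% of all genes were called higher. Against OCP1, where Cd63 was not called, 5 were likewise higher and 0 lower, with 13.8% of all genes called higher. In OCP4 minus OCP2, where Cd63 was higher, 0 were called. The part of haematopoietic cells in the Cd63 levels was not tested.

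Cd82, a tetraspanin that limits cell migration, was lowest in OCP3 (11.73 to 11.96) and highest in OCP2 (12.12 to 12.34), and these groups did not overlap. OCP3 was 1.31-fold lower than OCP2 (limma adjusted p = 0.00426), and OCP4 (12.01 to 12.26) was 1.18-fold higher than OCP3 (0.0258). The OCP4 call was lost without OCP3 replicate 3 or 4 or OCP4 replicate 3, with limma adjusted p between 0.00947 and 0.0829 over 23 alternative settings. OCP1 ranged from 11.88 to 12.13 and passed against no other group. The interaction for Cd82 was 0.44 ± 0.12 (SE; limma adjusted p = 0.0151), of opposite sign to that of Cd9.

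Cd81, the close relative of Cd9, had the narrowest range. Its mean over all arrays was 14.29, and whether differences are compressed at so bright a level was not tested. Its arrays lay between 14.27 and 14.29 in OCP1, 14.21 and 14.28 in OCP2, 14.29 and 14.36 in OCP3 and 14.29 and 14.32 in OCP4. No pair passed, and the 95% intervals of the 6 differences all stayed within 0.18 log2 units of 0. OCP3 minus OCP2 (0.09) passed with a variance prior that follows the level (limma adjusted p = 0.0237, and up to 0.505 over 23 alternative settings), and OCP4 minus OCP2 (0.07) passed at 0.14 with arrays centred on their medians (0.0259, and up to 0.609).

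The EWI partners differed between groups by less than the tetraspanins named first. Ptgfrn, which binds CD9 and CD81 and takes part in the control of cell fusion, lay between 12.18 and 12.33 in OCP1 and 12.15 and 12.24 in OCP4, and between 11.94 and 12.06 in OCP2 and 11.76 and 12.00 in OCP3. The 2 CD73+ groups overlapped and stood above both CD73- groups, which overlapped with each other. CD73+ cells had 1.23-fold more in Thy1- cells (limma adjusted p = 0.0158) and 1.23-fold more in Thy1+ cells (0.00205), and the interaction was 0.00 (95% interval from -0.20 to 0.21). The former call was lost without OCP1 replicate 1 or 3 or OCP2 replicate 2 (limma adjusted p of 0.00468 to 0.0730 over 23 alternative settings). OCP4 was 1.16-fold higher than OCP2 (0.0316), which was lost without replicate 1 or 2 of OCP2 or replicate 2 or 4 of OCP4 and with all probe sets kept apart (limma adjusted p of 0.00871 to 0.106 over 23 alternative settings).

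Igsf8, which also binds CD9 and CD81, lay between 9.55 and 9.57 in OCP3 and 9.56 and 9.66 in OCP4, against 9.71 to 9.79 in OCP1 and 9.71 to 9.84 in OCP2. The Thy1+ groups overlapped with each other and lay below the Thy1- groups, which also overlapped. OCP3 was 1.17-fold lower than OCP2 (limma adjusted p = 0.00397) and 1.13-fold lower than OCP1 (0.0137, lost without OCP1 replicate 2, with 0.00361 to 0.0701 over 23 alternative settings). OCP4 was 1.13-fold lower than OCP2 (0.0121). This call was lost without OCP2 replicate 3 (0.0634), with arrays centred on their medians (0.0975), with quantile normalization run again (0.0652) and with the 2 groups fitted alone (0.0532), and the lowest value over 23 alternative settings was 0.00643. OCP4 minus OCP1 was -0.13 (limma adjusted p = 0.0646).

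**Figure D2:**
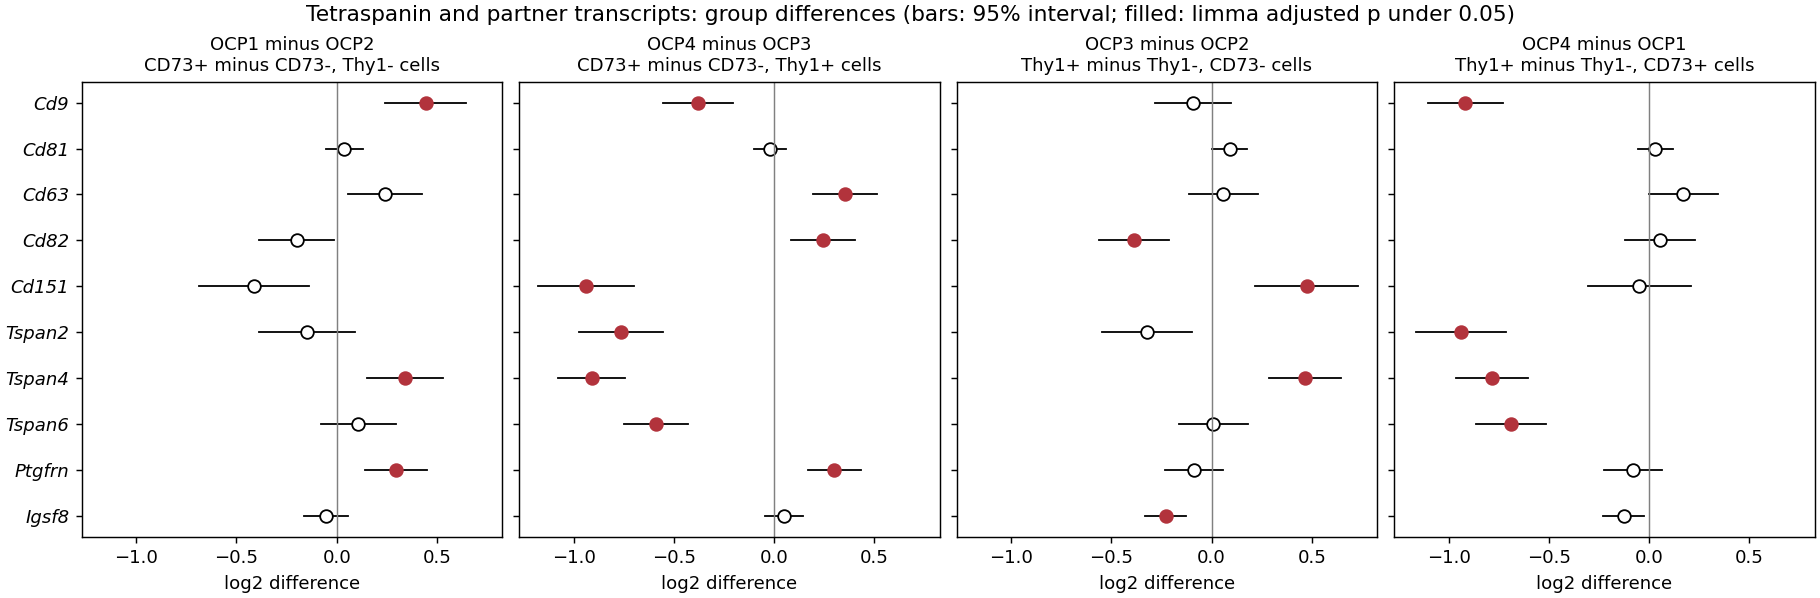
Log2 difference (x axis) of each gene (y axis) in the 4 comparisons that differ in 1 marker, with 95% intervals from limma as bars and filled points where the adjusted p was under 0.05. Cd9 and Tspan4 lie to the right of 0 for CD73 in Thy1- cells and to the left in Thy1+ cells, and Ptgfrn lies at about 0.30 in both.

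The comparisons differed in how many of the 10 genes passed. For CD73 in Thy1- cells (OCP1 minus OCP2), 3 were higher in OCP1 (Cd9, Tspan4 and Ptgfrn) and 0 lower, where 11% of all genes were called, 4.43% as higher and 6.56% as lower. This count was 1 without OCP1 replicate 1 or without OCP2 replicate 2, and 5 with a variance prior that follows the level. For CD73 in Thy1+ cells (OCP4 minus OCP3), 3 were higher (Cd63, Cd82 and Ptgfrn) and 5 lower (Cd9, Cd151, Tspan2, Tspan4 and Tspan6), where 27.8% of all genes were called, 14.3% as higher and 13.6% as lower. The median difference of the 10 genes was -0.20, against 0.04 over all genes. For Thy1 in CD73- cells (OCP3 minus OCP2), 2 were higher (Cd151 and Tspan4) and 2 lower (Cd82 and Igsf8), against 16.1% of all genes, 6.64% as higher and 9.48% as lower. For Thy1 in CD73+ cells (OCP4 minus OCP1), 0 were higher and 4 lower (Cd9, Tspan2, Tspan4 and Tspan6), against 26.3% of all genes, 13.8% as higher and 12.4% as lower. In the diagonal pairs, OCP1 minus OCP3 had 3 higher and 1 lower, against 24.4% of all genes, 11.9% as higher and 12.5% as lower. OCP4 minus OCP2 had 2 higher and 6 lower, against 24.2% of all genes, 10.4% as higher and 13.8% as lower. Centring each array on its median moved the split of all genes towards higher, from 963 higher and 1425 lower to 1530 and 976 for OCP1 minus OCP2, from 3097 and 2949 to 4129 and 2555 for OCP4 minus OCP3, from 1442 and 2060 to 1698 and 1535 for OCP3 minus OCP2, and from 2258 and 2993 to 3752 and 2288 for OCP4 minus OCP2. The 10 genes then had 3 higher and 5 lower in OCP4 minus OCP2. These comparisons share arrays, so their counts are not independent. The interaction was called for 6 genes, against 18.0% of all genes (9.96% positive and 8.05% negative), with 5 negative values (Cd9, Cd151, Tspan2, Tspan4 and Tspan6) and 1 positive (Cd82). For Cd151 this holds for the brighter probe set, and the interaction of the dimmer set was not called.

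The other tetraspanins were examined through a list of the mouse family. All 31 listed genes were measured, 23 of them outside the 10 genes above. Of these 23, 14 were called by the F-test, a share of 60.9% where 39.5% of all genes were called. For OCP4 minus OCP3, 6 of the 23 were called, a share of 26.1% near the 27.8% of all genes. Of these, 2 were higher and 4 lower, the latter led by Tspan15 (3.16-fold lower), Tspan12 (2.53-fold lower) and Tspan18 (1.59-fold lower). For OCP4 minus OCP1, 52.2% were called against 26.3% of all genes: 5 were higher, led by Tspan17 (2.33-fold), and 7 lower, led by Tspan15 (2.06-fold) and Tspan13 (2.02-fold). For OCP3 minus OCP2, 30.4% were called against 16.1% of all genes: 3 were higher and 4 lower, with Tspan17 2.00-fold and Tspan11 1.68-fold higher and Tspan13 1.68-fold lower. For OCP1 minus OCP2, 21.7% were called against 11% of all genes: 0 were higher and 5 lower, with Tspan12 (1.55-fold), Tspan9 (1.31-fold) and Tspan17 (1.29-fold) lower. The median log2 difference of the 23 genes in these 4 comparisons was 0.06, 0.04, 0.01 and -0.06, against 0.04, 0.01, -0.03 and -0.01 over all genes. The limma adjusted p-values of the named genes ran from 4.65e-08 to 0.0178.

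Tspan15 and Tspan17 belong to the TspanC8 subgroup, which escorts the protease ADAM10 to the cell surface and sets its choice of substrates. Tspan15 stood at 8.29 ± 0.28 (SD, n = 4) in OCP4 and 9.95 ± 0.20 (SD, n = 4) in OCP3, with 9.33 ± 0.09 in OCP1 and 9.80 ± 0.19 in OCP2 (SD, n = 3 each). The OCP4 arrays were below all others. Tspan17 stood at 10.23 ± 0.14 in OCP3 and 10.08 ± 0.08 in OCP4 (SD, n = 4 each) against 8.86 ± 0.03 in OCP1 and 9.23 ± 0.19 in OCP2 (SD, n = 3 each), so that it divided the groups by Thy1. The other genes of the subgroup were named after their values had been seen. Tspan5 and Tspan14 were 1.29-fold and 1.26-fold higher in OCP4 than in OCP1 (limma adjusted p = 0.000402 and 0.000779), and Tspan10 and Tspan33 were not called by the F-test. Adam10 was lowest in OCP1, where it was 1.22-fold lower than in OCP3 (limma adjusted p = 0.000223) and 1.15-fold lower than in OCP2 (0.0158). It was 1.16-fold lower in OCP4 than in OCP3 (0.00144), and OCP4 did not pass against OCP1 or OCP2. Tspan12, a tetraspanin of the Norrin receptor complex, had its highest mean (10.12) in OCP3 and its lowest (8.78) in OCP4. The brighter probe set of Cd151 had the same extremes, although its OCP4 and OCP1 arrays overlapped. The dimmer set of Cd151 was not lowest in OCP4, where its mean lay 0.24 above that of OCP2.

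**Figure D3:**
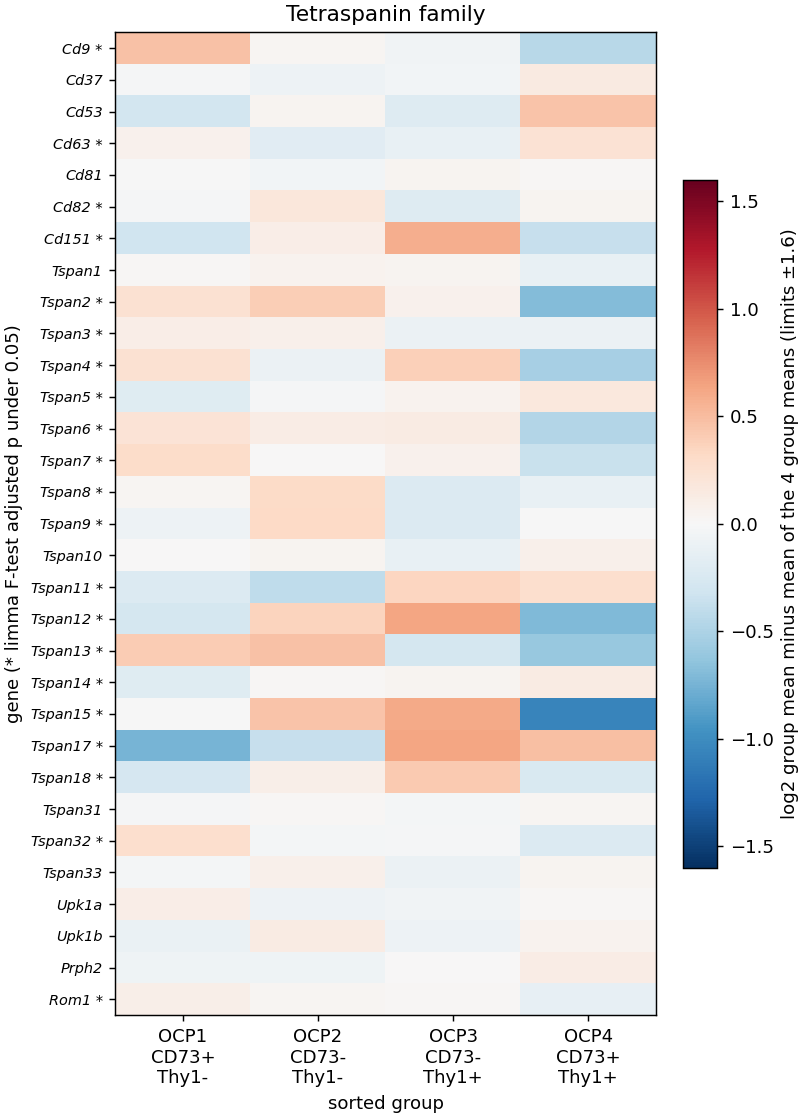
Group mean of log2 intensity minus the mean of the 4 group means (colour) for the 31 tetraspanin genes (rows) in the 4 sorted groups (columns), with an asterisk where the moderated F-test passed. OCP4 is the lowest column for Cd9, Tspan2, Tspan4, Tspan6, Tspan12 and Tspan15, and Tspan17 is high in OCP3 and OCP4.

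Partners of tetraspanins were examined through a list of 26 genes, all measured, of which 24 lie outside the 10 genes above. The F-test called 21 of these 24, where 39.5% of all genes were called. For OCP4 minus OCP3, 4 were higher and 10 lower, a share of 58.3% against 27.8% of all genes. Itga7, the muscle and vascular laminin receptor subunit, was 4.53-fold lower in OCP4 (limma adjusted p = 6.84e-08) and 2.63-fold higher in OCP3 than in OCP2 (3.59e-05). Itga6, a laminin receptor subunit that binds CD151 as an integrin dimer, was 2.38-fold lower in OCP4 than in OCP3 (7.66e-08) and stood at 12.61 ± 0.08 (SD, n = 4) in OCP3, above 11.71 ± 0.17 (SD, n = 3) in OCP2. Cldn1, a tight junction claudin that pairs with CD81, was 2.44-fold lower in OCP4 than in OCP3 (1.47e-08). The highest means of Itga6, Itga7 and Cldn1 were thus in OCP3, the group with the most Cd151, and the pericyte list described with Cd151 is highest in the same arrays. Its part in these differences was not tested.

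Other partners followed other group orders. Itga4, an integrin subunit that binds VCAM-1 and fibronectin, was 2.45-fold higher in OCP4 than in OCP1 (limma adjusted p = 1.13e-08). Vcam1 itself was 1.84-fold higher in that comparison (3.11e-06). Ifitm1, an interferon-induced membrane protein gene, was 2.29-fold higher in OCP4 than in OCP1 (2.38e-07) and 1.98-fold higher in OCP3 than in OCP2 (3.92e-06), and Ifitm3 was 2.02-fold higher in OCP3 than in OCP2 (4.72e-07). For OCP4 minus OCP1, 5 of the 24 were higher and 3 lower, a share of 33.3% against 26.3% of all genes. For OCP3 minus OCP2, 9 were higher and 5 lower, a share of 58.3% against 16.1%. For OCP1 minus OCP2, 2 were higher and 10 lower, so 12 of 24 against 11% of all genes, with the scavenger receptor gene Cd36 2.74-fold, the junctional adhesion gene F11r 2.58-fold and Itga7 2.20-fold lower in OCP1 (limma adjusted p of 0.000333 to 0.000876). The median log2 difference of the 24 genes was -0.03 for OCP4 minus OCP3, 0.07 for OCP4 minus OCP1, 0.09 for OCP3 minus OCP2 and -0.06 for OCP1 minus OCP2, against 0.04, 0.01, -0.03 and -0.01 over all genes. Endothelial genes moved with OCP1 minus OCP2, with 11 of 14 lower and 1 higher in OCP1 and a summed intensity of 23561 to 24019 in OCP1, 33066 to 46195 in OCP2, 31519 to 36951 in OCP3 and 27241 to 30503 in OCP4. Schwann and nerve genes moved with it as well, with 10 of 12 lower and 0 higher in OCP1, as did pericyte and smooth muscle genes, with 6 of 10 lower and 1 higher, and skeletal muscle genes, with 7 of 11 lower and 0 higher. The Schwann and nerve list was also lower in OCP4, with 9 of 12 genes lower than in OCP3 and 11 of 12 lower than in OCP2. Its summed intensity was 30271 to 31787 in OCP1, 39863 to 44337 in OCP2, 37386 to 42348 in OCP3 and 29332 to 31733 in OCP4. The part of these cells in the differences of the partners and of the tetraspanins was not tested.

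**Figure D4:**
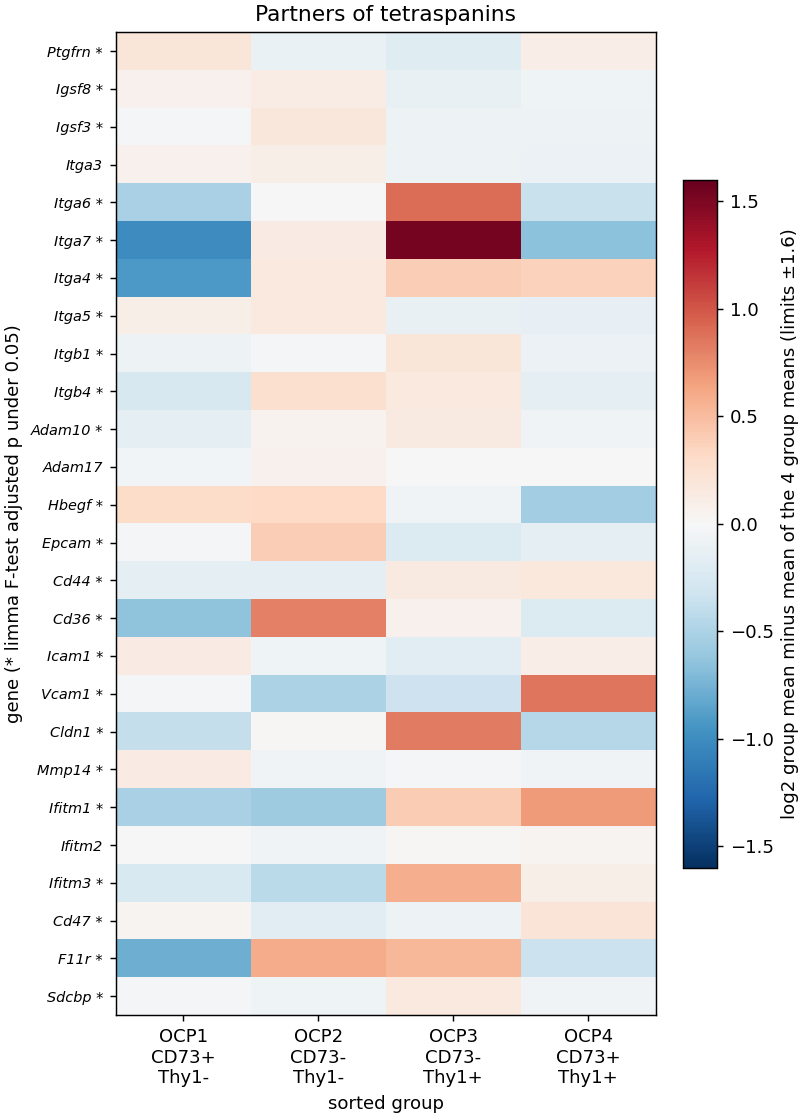
Group mean of log2 intensity minus the mean of the 4 group means (colour) for the 26 partner genes (rows) in the 4 sorted groups (columns), with an asterisk where the moderated F-test passed. Itga6, Itga7 and Cldn1 are highest in OCP3, and Vcam1 and Ifitm1 in OCP4.

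Over the 14 arrays, the genes whose log2 values correlated most with Cd9 were Tmbim1 (Pearson r = 0.982), Chad (0.970), which encodes the cartilage matrix protein chondroadherin, and C1qtnf3 (0.967), which encodes a secreted protein also found in cartilage. Those nearest to Tspan4 were Nuak1 (0.979) and Foxc2 (0.977), to Cd151 Snrk (0.981) and Bcar3 (0.976), to Tspan2 Socs2 (0.979) and Gpr125 (0.970), and to Tspan6 Tmx4 (0.976) and Fhl1 (0.973). Those nearest to Cd63 were Tor1aip2 (0.942) and Fkbp9 (0.936), to Cd82 Acsf3 (0.948) and Zfp251 (0.935), and to Cd81 Mef2c (0.909) and Arhgap23 (0.898). For Ptgfrn they were AW551984 (0.966) and Cercam (0.962), and for Igsf8 Fam190a (0.951) and Atxn7l3b (0.937). These are the highest of 21733 genes, and they describe arrays that fall into 4 groups, so a gene with the same order of group means scores high.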

How the data were processed

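The authors deposited linear intensity values for every probe set, made with RMA per the submitters' processing notes, for which no version or build is stated here. Log2 was taken here. The deposited comparison table gives log2 differences and adjusted p-values (p-value columns by limma, per the submitters' processing notes) and the symbols. Its probe numbers are row positions of the value table: log2 differences recomputed from those rows differed by at most 5.00e-08. Its signs run as OCP4 minus the other group. Of 35556 probe sets 25254 had a symbol, 26 symbols had become dates and were left unnamed, and the brightest probe set was used for each of 21733 symbols, with no filter on dim genes. Array medians were 328.1 to 346.8 intensity units. Replicates correlated at 0.9955 to 0.9979 and their difference had an SD of 0.146 log2 units or more, so no array was a copy. Precision is limited by how many arrays a group has.

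Differences were tested with limma 3.58.1 (R 4.3.3), with 1 mean per group, all 14 arrays, eBayes, and Benjamini-Hochberg adjustment over all genes within each comparison at 0.05. The script was tested on simulated data. The genes and lists were chosen with earlier results of these data known. Beside the 10 genes, the text names up to 3 called genes of each list with the largest difference per 1-marker comparison, and the genes most correlated with each gene (3 for Cd9, 2 for the others). Alternatives were quantile normalization, centring, a filter at the 25th percentile of level, both probe set rules, the variance prior with trend, the 2 groups alone, array weights, a replicate block and each array left out. No batch is named in the labels. The test had been planned for log2 values, so the log was taken first. RefSeq sequences are from GRCm38.p6, and the array's build was not stated, so no gene coordinates are given beyond those sequences.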

Additional observations from a re-analysis of the deposited data

Results flagged for a closer look

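For 6 genes the CD73 difference in Thy1+ cells differed from that in Thy1- cells by the interaction test in limma. The interaction was -0.82 for Cd9, -0.52 for Cd151, -0.61 for Tspan2, -1.25 for Tspan4, -0.70 for Tspan6 and 0.44 for Cd82, with limma adjusted p of 0.000291, 0.0461, 0.00964, 5.36e-06, 0.000608 and 0.0151. Over all genes 18.0% were called. Cd9 and Tspan4 had called CD73 differences of opposite sign in the 2 backgrounds. For the brighter probe set of Cd151 both differences were negative, and the interaction call was kept in 10 of 22 alternative settings. For its dimmer probe set the interaction was -0.10 ± 0.13 (SE; limma adjusted p = 0.706 over all probe sets). There, OCP1 minus OCP2 was 0.05 and OCP4 minus OCP3 was -0.05.

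In 2 of 20 groups of 4 arrays, 1 array stood far from the other 3 by Dixon's ratio, which chance does in about 1 group of 20. Cd9 in OCP3 replicate 2 was at 10.85, where the others lay from 11.01 to 11.04. Tspan4 in OCP3 replicate 4 was at 12.09, where the others lay from 12.20 to 12.21. Without OCP3 replicate 2 or 4, no call for Cd9 or Tspan4 was lost in any comparison.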

How the results depend on the processing

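The log2 difference of each of the 10 genes in 7 comparisons was recomputed in up to 23 alternative settings. Of these values, 1543 stayed on the same side of the threshold, called or not called, 36 lost a call, 21 gained one and 0 turned their sign with a call. The number of the 10 genes called for OCP1 minus OCP2 was 3 and rose to 5 with the variance prior with trend. Leaving out single arrays gave 1 to 4 genes for OCP1 minus OCP2, 7 to 8 for OCP4 minus OCP3, 3 to 5 for OCP3 minus OCP2 and for OCP1 minus OCP3, 4 for OCP4 minus OCP1, 6 to 8 for OCP4 minus OCP2, 5 to 6 for the interaction and 9 for the F-test. The low count of 1 for OCP1 minus OCP2 appeared when OCP1 replicate 1, or OCP2 replicate 2, was left out. The main fit did not pair arrays by the replicate numbers of the labels. Deviations from group means of same-numbered arrays correlated at -0.419 to 0.395, above 0.1 in 8 of 19 pairs. Among arrays numbered 2 they correlated at -0.096 to 0.395. Arrays of different number were not compared in this way, so the check cannot tell whether the numbers pair the arrays. With the replicate block, the count was 4 for OCP1 minus OCP2, with Cd151 added (limma adjusted p = 0.0483), and unchanged at 8, 4, 4, 4, 8, 6 and 9 for OCP4 minus OCP3, OCP3 minus OCP2, OCP4 minus OCP1, OCP1 minus OCP3, OCP4 minus OCP2, the interaction and the F-test. For Cd151 in OCP1 minus OCP2 (limma adjusted p = 0.0532), 9 of 23 settings gave a call. Median centring moved the median of all genes by at most 0.065 log2 units. Signal over background was not tested.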
